A study of Mus musculus with 22 samples.

Results

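Claudins are membrane proteins of tight junctions, the contacts that seal neighbouring epithelial cells to each other. Some claudins close the space between cells, and others form channels there for ions and water, so the mix of claudins sets which solutes cross the gut wall. The barrier-forming ones of this group are Cldn1, Cldn3, Cldn4, Cldn5, Cldn7 and Cldn8, and the channel-forming ones are Cldn2, Cldn10 and Cldn15. Cldn12, which lacks the tail motif by which other claudins bind scaffold proteins, is listed apart. These 10 genes were read from every probe that the array files name for them, which gave 11 probes of the 41174 on the array and 10 of the 27962 gene names. Cldn1 had 2 probes and each other gene had 1. The genes were chosen by name with earlier results of these data in view, and Cldn4 was selected on its lower level in aged than in young ileum, so the comparison of ages is given here as a description.

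The study measured RNA from whole gut tissue of male C57BL/6 mice on chow with 1-colour Agilent arrays. The groups were aged colon iKO (n = 4), aged colon flox (n = 3), aged ileum iKO (n = 4), aged ileum flox (n = 3), young ileum iKO (n = 4) and young ileum flox (n = 4), 22 arrays in all. Aged mice were 24 months old and young mice 6 to 8 weeks old. iKO is the labels' name for the SIRT1 mutants and flox for their controls; the labels spell out neither the abbreviation, nor the deleted part of Sirt1, nor the promoter that drove the deletion. They number the replicates without saying that these came from separate mice, so p-values here measure the spread between these samples.

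Each level is a log2 signal less that of the array's 75th percentile, so 0 means a signal equal to that percentile, and a level says nothing about another probe's level. Between 70.4% and 79.7% of spots were well above background on colon arrays and between 49.8% and 61.5% on ileum arrays. Sirt1, whose brightest probe checks the labels only if it reads the deleted stretch, which is not known, lay at 0.34 to 0.65 in aged colon iKO against 0.76 to 0.79 in aged colon flox, at 0.28 to 0.39 in aged ileum iKO against 0.59 to 1.09 in aged ileum flox, and at 0.64 to 0.75 in young ileum iKO against 0.60 to 1.19 in young ileum flox. Its other probe overlapped between genotypes in each, at -0.91 to -0.47 in aged colon iKO against -0.73 to -0.47 in aged colon flox, at -0.91 to -0.72 in aged ileum iKO against -0.97 to -0.43 in aged ileum flox, and at -0.55 to -0.11 in young ileum iKO against -0.43 to 0.01 in young ileum flox. All 9 markers of epithelium were well above background on every array. Among ileum arrays 2 stood apart. Car1, a carbonic anhydrase of colon epithelium, was at 7.79 on aged ileum iKO replicate 2 and at 8.18 on aged ileum flox replicate 1, against -3.00 to 2.63 on the other 13 ileum arrays and 8.17 to 8.74 on the 7 colon arrays. Aqp8, a water channel of colon epithelium, was at 5.57 and 6.55 on the same 2 arrays, against -5.09 to -2.08 on the other 13. Hoxb13, which marks the distal colon, was not well above background on any aged ileum array. Where leaving out these 2 arrays moved a difference given below for a claudin by over 1.5 times, or changed calls counted below, the value without them is given too. Young ileum iKO replicate 4 held the highest summed level of B cell markers in the young ileum, 74.8 against 13.2 to 24.3 on the other 7 young arrays, where 1 is the 75th percentile of the array. Ileum and colon arrays lay on different slides, so tissue and slide cannot be told apart, and all aged ileum arrays lay at other slide positions than the young ones, so age and position cannot be told apart either. In the young ileum and the colon each genotype had a slide position of its own, so genotype and position cannot be told apart there.

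Probes of 60 bases were printed on the array, and the first 30 bases of those on which the results below turn are given to show which stretch of each transcript was read. Positions are those of the array files, in mouse build mm7.
Cldn4, chr5:133916757-133916816, minus strand: accctactaatgaatttctgtagagtggat
Cldn8, chr16:88610520-88610579, minus strand: aaagatgttgtccatatgtatttcaactcc
Cldn7, chr11:70048852-70049161, plus strand: taaccccttgacgcccatgaacgttaagta
Cldn5, chr16:18327686-18327745, plus strand: tcctactgagatcctgggggcactagatgc
Cldn2, chrX:134529918-134529977, plus strand: agtgtggaacatctgtgaccaaggtgttgt
Cldn15, chr5:135946505-135946564, plus strand: actacacacatgcacacattctcaacaaaa
The interval of the Cldn7 probe covers 310 bases of the genome and those of the others 60, so only the Cldn7 probe among these 6 is split over the genome. No annotation of mm7 was used, so exon and UTR positions are not given.

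Both Cldn1 probes, for a barrier claudin best known from skin, were well above background on the same single array, aged colon flox replicate 1, and on none of the other 21. Cldn1 was therefore not tested and no difference is given for it. The other 9 claudins, 1 probe each, passed the filter on dim probes in every fit and are the tested claudins below. Of these, 8 were well above background on all 22 arrays, and Cldn4 on 21.

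**Figure D1:**
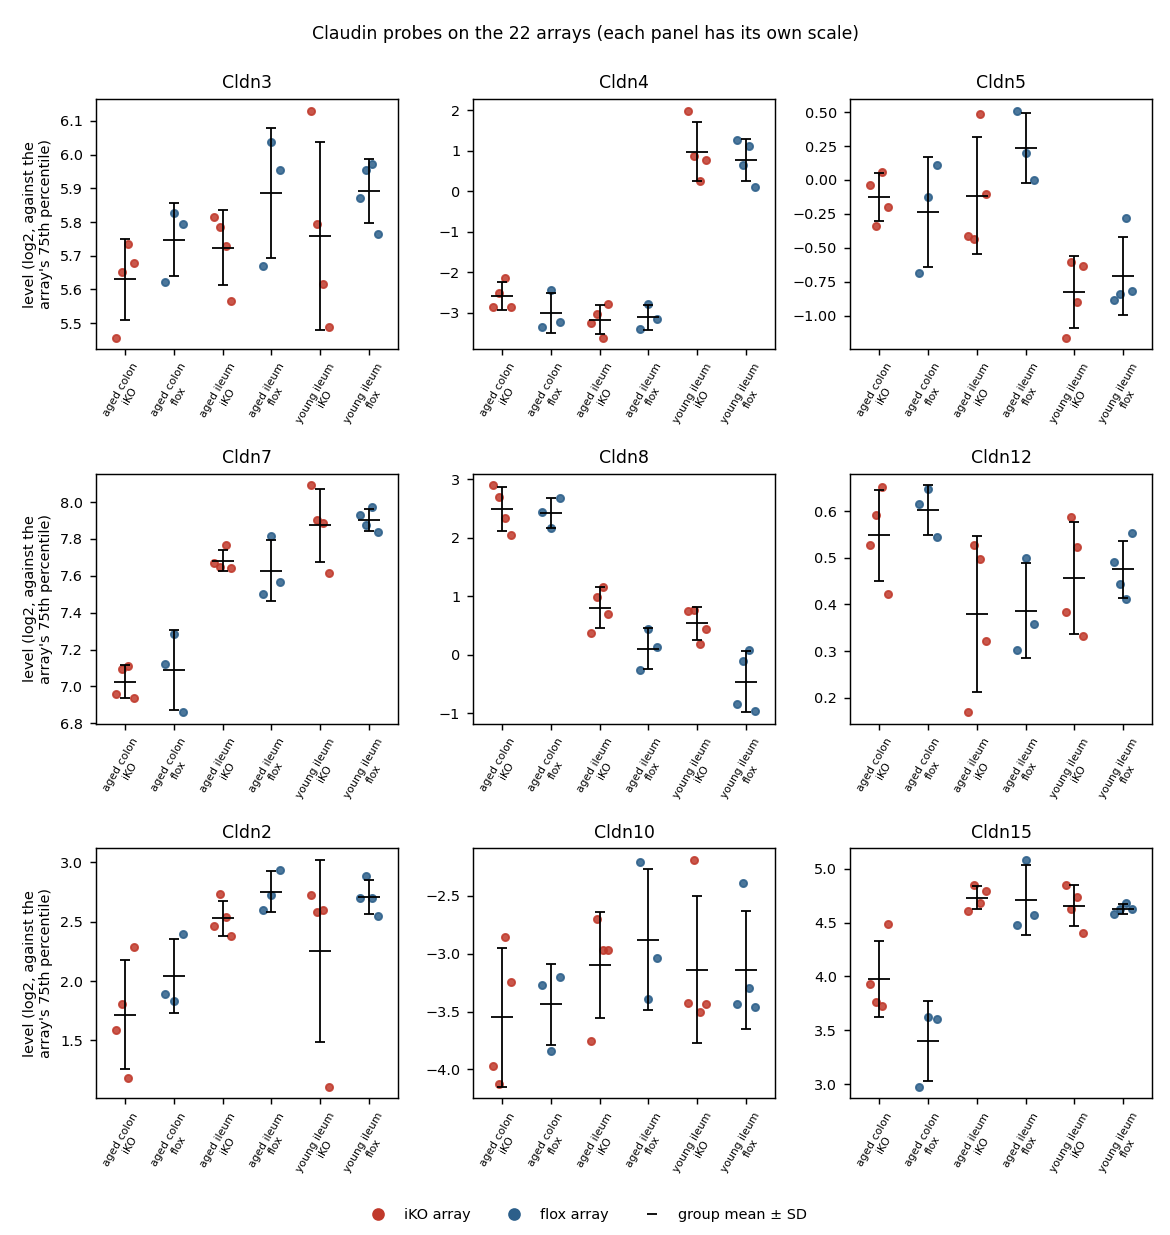
Level of 9 claudin probes (y axis, log2 against the 75th percentile of the array, own scale in each panel) in the 6 groups (x axis). Points are arrays, red for iKO and blue for flox, and the black bars show the group mean ± SD; Cldn4 is lower in all 14 aged arrays than in the 8 young ones, and Cldn8 is higher in all 7 colon arrays than in the 15 ileum arrays.

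Cldn4, a barrier claudin of gut epithelium that also marks the epithelium over lymphoid follicles, was much lower in aged than in young ileum in both genotypes. It was at -3.26, -3.04, -3.62 and -2.78 in aged ileum iKO, against 1.99, 0.88, 0.26 and 0.76 in young ileum iKO. In flox mice it was at -3.40, -2.78 and -3.17 in aged ileum, against 1.25, 0.64, 1.11 and 0.10 in young ileum. Every young array lay above every aged ileum array. The difference was -4.15 ± 0.34 in iKO (a level 17.7-fold lower in aged than in young ileum) and -3.89 ± 0.37 in flox (14.9-fold lower), where errors are standard errors of the fit. Among 22282 probes tested, 3 had a larger fall in iKO and 4 in flox. Aged ileum iKO replicate 3, the lowest array, was not well above background for Cldn4, so its level there is only a bound. These values describe the contrast that chose the gene and carry no test. Without the 2 arrays high in Car1 and Aqp8 they were -4.19 in iKO and -3.75 in flox.

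In the aged colon Cldn4 was low as well. It was at -2.87, -2.51, -2.15 and -2.86 in aged colon iKO, against -3.26 to -2.78 on the 3 aged ileum iKO arrays where it was well above background. In flox it was at -3.37, -2.45 and -3.23 in aged colon, against -3.40 to -2.78 in aged ileum. Colon and ileum overlapped in both genotypes, and neither difference passed limma (0.58 ± 0.25, adjusted p = 0.0811 in iKO; 0.10 ± 0.29, adjusted p = 0.815 in flox, where the sign turned with normexp background correction, at -0.21, and without the 2 arrays high in Car1 and Aqp8, at -0.04). From highest to lowest mean the order was young ileum iKO at 0.97 ± 0.73, young ileum flox at 0.78 ± 0.52, aged colon iKO at -2.60 ± 0.34, aged colon flox at -3.02 ± 0.49, aged ileum flox at -3.12 ± 0.31 and aged ileum iKO at -3.18 ± 0.36 (SD). The gap between the young ileum groups and the aged groups is the one step in that order that exceeds the spread within groups. No young colon was measured, so a difference with age is given for the ileum alone.

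By likeness over all 22 arrays (Pearson's r against 26024 probes with a gene name), 4 of the 5 probes closest to Cldn4 were those of Raly, an RNA-binding protein (r = 0.976), Snrpd3, a core spliceosomal protein (0.971), Rnf10, a ring finger protein (0.967), and Cdx2, a transcription factor of intestinal epithelium (0.965). Raly averaged 1.30 in aged ileum iKO against 2.85 in young ileum iKO, and 1.26 in aged ileum flox against 3.00 in young ileum flox. All points share the split into young and aged arrays, and the r values describe that split. Snrpd3 differed by -2.62 ± 0.09 in iKO and -2.83 ± 0.10 in flox at the probe closest to Cldn4, and by -2.57 and -2.77 at a second; the last of its probes, well above background on 19 arrays, differed by 0.11 ± 0.34 and -0.22 ± 0.37. Cldn4, Raly, Rnf10 and Cdx2 each had a single probe, so no second probe could be set beside them.

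**Figure D2:**
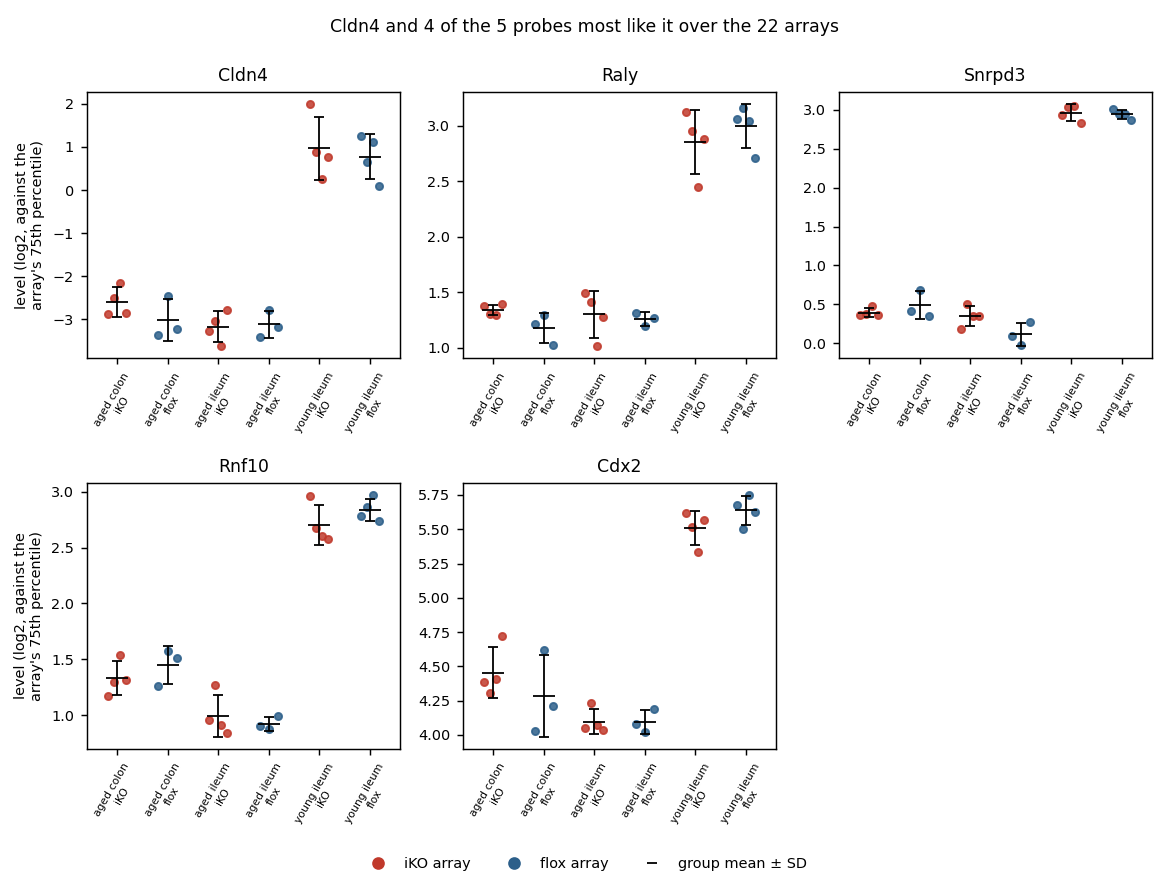
Level (y axis, log2 against the 75th percentile of the array, own scale in each panel) of the Cldn4 probe and 4 of the 5 probes most like it over 22 arrays, in the 6 groups (x axis). Points are arrays, red for iKO and blue for flox, and black bars show the group mean ± SD; in each panel the 14 aged arrays of ileum and colon lie below the 8 young ones.

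Cldn3, the barrier claudin whose probe lies nearest to that of Cldn4 among the tested claudins of this group, showed no such difference. It was at 5.82, 5.79, 5.73 and 5.57 in aged ileum iKO, against 6.13, 5.80, 5.62 and 5.49 in young ileum iKO, and at 5.67, 6.04 and 5.95 in aged ileum flox, against 5.87, 5.95, 5.97 and 5.76 in young ileum flox. Young and aged arrays overlapped in both genotypes, and the difference was -0.03 ± 0.13 in iKO and 0.00 ± 0.14 in flox (-0.05 and 0.10 without the 2 arrays high in Car1 and Aqp8). The probe starts of Cldn3 and Cldn4 are 41832 bases apart on chromosome 5 of mm7. The probe of Cldn13, a claudin outside this group, lies closer to that of Cldn4, with its start at 133886120. It was well above background on 8 arrays. Among a list of 13 genes beside this pair, 12 were on the array and 10 were tested in the ileum. None of the 10 passed limma between ages in either genotype, with a median difference of 0.10 in iKO and -0.12 in flox (all probes: -0.02 and -0.03).

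The 250 bases before the start of each gene of this pair are shown because they are neighbours whose levels differed so unlike each other between ages (RefSeq, build GRCm38.p6). Capitals mark GGGCGG, the core of an Sp1 box, and CACCTG, an E-box, on either strand; no 2 matches overlap.
Cldn4, chr5:134946935-134947184, minus strand: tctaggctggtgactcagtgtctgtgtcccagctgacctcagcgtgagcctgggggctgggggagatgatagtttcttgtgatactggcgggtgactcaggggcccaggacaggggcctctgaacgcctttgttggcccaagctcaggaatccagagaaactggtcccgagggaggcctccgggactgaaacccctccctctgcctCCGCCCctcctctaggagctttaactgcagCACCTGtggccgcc
Cldn3, chr5:134985964-134986213, plus strand: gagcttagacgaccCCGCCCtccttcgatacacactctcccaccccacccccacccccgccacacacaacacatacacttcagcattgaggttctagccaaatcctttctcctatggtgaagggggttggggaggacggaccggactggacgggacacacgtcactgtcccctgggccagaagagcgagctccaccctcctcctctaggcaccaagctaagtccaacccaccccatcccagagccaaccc
Each held 1 GGGCGG, which 32.7% of 32851 mouse promoters of that length hold, and Cldn4 also held 1 CACCTG, which 17.2% hold. Neither TATAAA (12.4% of promoters) nor TTTATG, a site form of CDX factors (10.8%), was found in these windows. A match is a description of letters and not a site in use.

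The list of follicle-associated epithelium and M cell markers was set beside Cldn4. Its summed level ranged over 37.2 to 56.8 in aged ileum iKO against 32.0 to 38.3 in young ileum iKO, and over 29.4 to 45.7 in aged ileum flox against 23.3 to 51.5 in young ileum flox. Of 10 tested members 1 was lower with age in iKO (Tnfrsf11b, -0.50 ± 0.14, limma adjusted p = 0.0359) and 0 in flox, and none was higher in either. As a share of all probes, 5.86% were lower in iKO and 5.02% in flox. Without the 2 arrays high in Car1 and Aqp8 the call of Tnfrsf11b was lost (adjusted p = 0.0707). The 9 epithelial markers summed to 1497 to 1608 in aged ileum iKO against 1626 to 2052 in young ileum iKO, and to 1480 to 1514 in aged ileum flox against 1663 to 1906 in young ileum flox, so young and aged sums did not overlap. Of these 9 markers 2 passed limma as lower in aged ileum in each genotype, Epcam and Cdx2. Epcam, an epithelial adhesion protein, differed by -0.49 ± 0.10 in iKO and -0.45 ± 0.11 in flox (limma adjusted p = 0.0281, and 0.108 without those 2 arrays). Cdx2 differed by -1.41 ± 0.09 in iKO and -1.54 ± 0.09 in flox. The part of these lists in the Cldn4 difference was not tested. In whole tissue, fewer cells of a type and less RNA per cell cannot be told apart.

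The comparison of ages chose the members, so the count of claudins past the threshold in it is a description and no test of them. Of 9 claudins, 2 had an adjusted p under 0.05 in each genotype, Cldn4 lower and Cldn5 higher in aged ileum. Of all probes 11% passed in iKO (5.12% higher and 5.86% lower in aged ileum) and 8% in flox (2.98% higher and 5.02% lower), and nothing is read from the claudins' count. Groups did not overlap for 2 of 9 claudins in iKO (19% of all probes) and for 3 of 9 in flox (24.3%). The median difference was 0.04 in each genotype (all probes: -0.02 in iKO and -0.03 in flox).

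Cldn5, the main claudin of blood vessel endothelium, was at -0.41, -0.43, 0.49 and -0.10 in aged ileum iKO, against -1.16, -0.60, -0.90 and -0.63 in young ileum iKO. In flox it was at 0.51, 0.20 and 0.00 in aged ileum, against -0.88, -0.84, -0.28 and -0.82 in young ileum. Aged and young arrays did not overlap in either genotype. The difference was 0.71 ± 0.21 in iKO and 0.94 ± 0.23 in flox, again as a description. Cldn5 no longer had an adjusted p under 0.05 in 13 of 15 fits that left out 1 array in iKO and in 5 of 15 in flox, nor in flox without the 2 arrays high in Car1 and Aqp8, where the difference was 0.80. In the aged colon Cldn5 was at -0.04, -0.34, 0.06 and -0.20 in iKO and at -0.69, -0.13 and 0.11 in flox, which overlapped the aged ileum in both genotypes (colon minus ileum: -0.01 ± 0.22, limma adjusted p = 0.969 in iKO, and -0.12 without the 2 arrays; -0.47 ± 0.26, adjusted p = 0.182 in flox).

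All 10 endothelial markers on the array differed in the same direction as Cldn5 between ages in both genotypes. By limma 3 of 10 passed in iKO (Tek, Eng and Robo4) and 4 of 10 in flox (Pecam1, Kdr, Eng and Robo4), all higher in aged ileum, with a median difference of 0.49 in iKO and 0.51 in flox. Of all probes 5.12% passed as higher in iKO and 2.98% in flox. Without the 2 arrays high in Car1 and Aqp8 these counts were 3 and 2. Eng, a coreceptor for TGF-beta ligands on endothelium, differed by 0.66 ± 0.12 in iKO (adjusted p = 0.00514) and 0.85 ± 0.13 in flox (adjusted p = 0.00209). Cdh5, the adhesion protein of endothelial junctions, differed by 0.01 ± 0.20 (adjusted p = 0.978) in iKO and 0.20 ± 0.22 (adjusted p = 0.593) in flox. The summed level of the list was 5.52 to 7.51 in aged ileum iKO against 3.98 to 5.97 in young ileum iKO, and 6.63 to 9.04 in aged ileum flox against 4.56 to 6.45 in young ileum flox. Its part in the Cldn5 difference was not tested. The probes most like that of Cldn5 over 22 arrays were those of Myo18b (r = 0.892), Mmrn2, a protein of endothelial matrix (0.880), and Ackr1, a chemokine-binding receptor of venules (0.850), the last named Darc in the files.

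**Figure D3:**
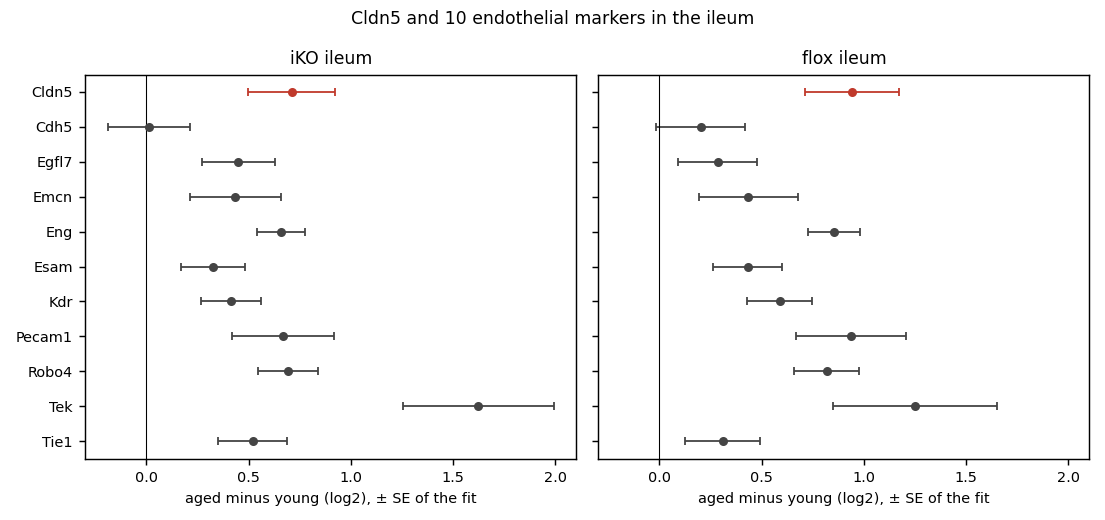
Difference between aged and young ileum (x axis, aged minus young, log2) for Cldn5 in red and 10 endothelial markers in black, in iKO on the left and flox on the right; bars are standard errors of the fit. All 11 points lie above 0 in each panel.

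The remaining claudins had smaller differences between ages in each genotype. Cldn7, a barrier claudin that also sits along the lateral membrane of gut epithelium, was at 7.64 to 7.77 in aged ileum iKO against 7.61 to 8.09 in young ileum iKO (-0.19 ± 0.10), and at 7.50 to 7.82 in aged ileum flox against 7.84 to 7.97 in young ileum flox (-0.27 ± 0.11); the flox groups did not overlap. Cldn8 differed by 0.27 ± 0.25 in iKO and 0.56 ± 0.27 in flox. Cldn2, Cldn10, Cldn12 and Cldn15 differed by -0.08 to 0.27 in iKO and by -0.09 to 0.27 in flox, all with overlapping groups. These ranges without the 2 arrays high in Car1 and Aqp8 were -0.13 to 0.21 in iKO and -0.07 to 0.20 in flox, and Cldn10 turned sign in both genotypes, at -0.09 in iKO and -0.07 in flox.

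Colon and ileum differed most in Cldn8, a barrier claudin of the distal gut that hinders sodium leak back into the tissue. Cldn8 was at 2.90, 2.70, 2.34 and 2.05 in aged colon iKO, against 0.37, 0.99, 1.16 and 0.70 in aged ileum iKO. In flox it was at 2.44, 2.16 and 2.67 in aged colon, against -0.26, 0.43 and 0.13 in aged ileum. Colon and ileum did not overlap in either genotype. Cldn8 was higher in colon by 1.69 ± 0.23 in iKO (limma adjusted p = 0.000120) and 2.32 ± 0.26 in flox (adjusted p = 7.55e-05). The probes most like it over 22 arrays were those of Tcfcp2l1, a transcription factor (r = 0.957), Emp2, a membrane protein (0.955), and Bcl2l14 (0.944). By group mean the order was aged colon iKO at 2.50 ± 0.37, aged colon flox at 2.43 ± 0.26, aged ileum iKO at 0.81 ± 0.35, young ileum iKO at 0.54 ± 0.28, aged ileum flox at 0.10 ± 0.35 and young ileum flox at -0.46 ± 0.52 (SD). The step from colon to ileum exceeds the spread within groups, whereas the first 2 of these groups, and the next 2, lie within it.

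Cldn15, Cldn7 and Cldn2 were lower in colon as levels against the array's 75th percentile. That percentile was itself a higher signal in colon, at 1425 to 1751 on colon arrays against 1132 to 1231 on aged ileum arrays. Cldn15, a sodium channel-forming claudin of the small intestine, was at 3.93, 3.76, 3.73 and 4.49 in aged colon iKO, against 4.60, 4.84, 4.68 and 4.79 in aged ileum iKO. In flox it was at 2.97, 3.62 and 3.60 in aged colon, against 4.47, 5.08 and 4.57 in aged ileum. No colon array reached an ileum array of its genotype. Cldn15 was lower by 0.75 ± 0.20 in iKO (-0.75, limma adjusted p = 0.0101) and by 1.31 ± 0.23 in flox (-1.31, adjusted p = 0.00144).

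Cldn7 was at 6.96, 7.09, 7.11 and 6.94 in aged colon iKO, against 7.67, 7.65, 7.77 and 7.64 in aged ileum iKO. In flox it was at 7.12, 7.29 and 6.86 in aged colon, against 7.50, 7.82 and 7.57 in aged ileum. The tissues did not overlap in either genotype, and the difference was -0.66 ± 0.10 in iKO (limma adjusted p = 0.000390) and -0.54 ± 0.12 in flox (adjusted p = 0.00542). The flox call was lost in a fit of the 6 aged flox arrays alone (limma adjusted p = 0.0634). Over the settings tried the difference ranged over -0.69 to -0.38 in iKO and -0.64 to -0.36 in flox. Before scaling, the mean Cldn7 signal was 198302 in aged colon iKO against 241723 in aged ileum iKO. In flox it was 225687 in aged colon against 238224 in aged ileum.

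Cldn2, a claudin of crypt cells that forms a channel for cations and water, was at 1.59, 1.81, 1.18 and 2.28 in aged colon iKO, against 2.46, 2.73, 2.54 and 2.38 in aged ileum iKO. In flox it was at 1.89, 1.84 and 2.40 in aged colon, against 2.60, 2.72 and 2.94 in aged ileum. The tissues did not overlap, and Cldn2 was lower in colon by limma, at -0.81 ± 0.21 in iKO (adjusted p = 0.00775) and -0.71 ± 0.24 in flox (adjusted p = 0.0390). The flox call rests on single arrays. It was lost without aged ileum flox replicate 1 (limma adjusted p = 0.0503), 3 (0.0765) or 4 (0.121), without aged colon flox replicate 1 (0.106) or 3 (0.116), and without aged colon iKO replicate 2 (0.0501). It was also lost with quantile normalization (0.0758) and without the 2 ileum arrays high in Car1 and Aqp8 (0.0565), while the iKO call held under every alternative run. Of all 32851 mouse promoters of that length, 12.4% held TATAAA and 10.8% TTTATG, so nothing is read from how many claudin promoters held them. The promoter of Cldn2 is shown because it alone of the 13 claudin promoters searched held TATAAA and TTTATG, both in capitals (RefSeq, GRCm38.p6).
Cldn2, chrX:139800558-139800807, plus strand: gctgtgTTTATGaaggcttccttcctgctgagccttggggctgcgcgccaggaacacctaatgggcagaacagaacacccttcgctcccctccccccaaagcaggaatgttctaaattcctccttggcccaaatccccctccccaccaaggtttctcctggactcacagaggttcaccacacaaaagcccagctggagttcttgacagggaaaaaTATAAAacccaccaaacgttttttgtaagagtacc
It held neither GGGCGG nor CACCTG.

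**Figure D4:**
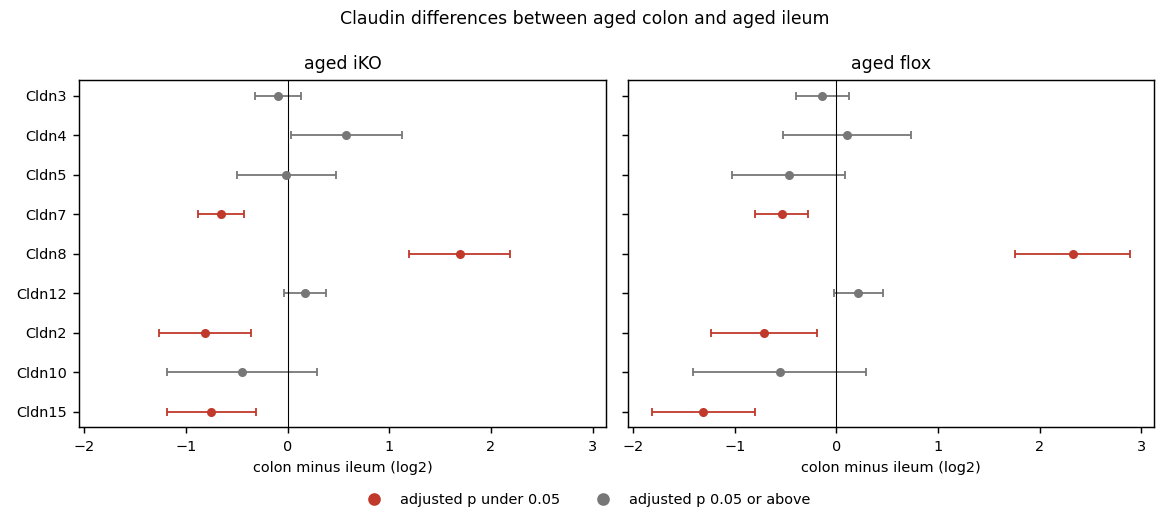
Difference between aged colon and aged ileum (x axis, colon minus ileum, log2) for 9 claudins, in iKO on the left and flox on the right, with the 95% interval of the fit, not adjusted for the number of probes. Red marks claudins with an adjusted p under 0.05: Cldn8 to the right of 0, and Cldn7, Cldn2 and Cldn15 to the left, in each panel.

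These 4 of 9 tested claudins, 1 higher and 3 lower, passed between tissues in each genotype, against 42.9% of all probes in iKO (25.1% higher and 17.7% lower) and 32.2% in flox (20.2% higher and 12% lower). The claudins' share of 4 in 9 is near that background. Groups did not overlap for 4 of 9 claudins in iKO (42.5% of all probes) and for 5 of 9 in flox (45.1%), the additional one being Cldn12. The median difference of the 9 was -0.09 in iKO and -0.47 in flox, beside 0.10 and 0.12 over all probes; normexp background correction put the medians of all probes at -0.07 and -0.05, and the 4 claudins kept their directions under it. Cldn3, Cldn10 and Cldn12 did not pass in either genotype. Cldn3 differed by -0.09 ± 0.10 (limma adjusted p = 0.491) in iKO and -0.14 ± 0.12 (adjusted p = 0.404) in flox, with 95% intervals of -0.32 to 0.13 and -0.40 to 0.12; the flox difference was -0.25 without the 2 arrays high in Car1 and Aqp8 (adjusted p = 0.152). Cldn12 differed by 0.17 ± 0.10 in iKO and 0.22 ± 0.11 in flox.

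Between iKO and flox, no claudin passed limma in any tissue or age. In the aged colon 0 of 9 tested claudins passed (0.103% of all probes did), in the aged ileum 0 of 9 (0.148%) and in the young ileum 0 of 9 (0.0359%). In each of the 3 comparisons 1 of the 9 had an unadjusted p under 0.05 by limma, Cldn15 in the colon and Cldn8 in the ileum at both ages. The share of all probes under that unadjusted threshold is not given, so nothing is read from this count. Groups did not overlap for 1 claudin in the aged colon (8.18% of all probes), for 0 in the aged ileum (13.8%) and for 1 in the young ileum (2.14%). The median difference was -0.05 in the aged colon, -0.06 in the aged ileum and -0.02 in the young ileum (all probes: -0.02, 0.02 and -0.01).

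Cldn8 had the largest difference in the young ileum, at 0.75, 0.77, 0.18 and 0.44 in iKO against -0.85, -0.11, 0.08 and -0.96 in flox. Every iKO array lay above every flox array. The difference was 1.00 ± 0.25, with an unadjusted p of 0.00163 and an adjusted p of 0.567 by limma, and within the 4 slides that held both genotypes it was 0.36 to 1.62. In the aged ileum Cldn8 differed by 0.70 ± 0.27 (limma adjusted p = 0.361) with overlapping groups, and by 0.55 on the 1 slide with both genotypes. Without the 2 arrays high in Car1 and Aqp8 the aged difference was 0.46 (adjusted p = 0.654). In the colon it was 0.07 ± 0.23 (adjusted p = 0.983). The Cldn8 difference was not shown to depend on age or tissue: the interaction was -0.29 ± 0.37 for age (95% interval -1.10 to 0.51) and -0.63 ± 0.35 for tissue (limma adjusted p = 0.820, interval -1.39 to 0.12). These interactions were -0.53 and -0.39 without the 2 arrays.

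Cldn15 in the aged colon, from the values above, differed by 0.58 ± 0.24 between iKO and flox, with an unadjusted p of 0.0466 and an adjusted p of 0.684 by limma. The groups did not overlap, and within the 3 slides that held both genotypes the difference was 0.12 to 1.52. Without aged colon flox replicate 1, the lowest array, it was 0.36. In the aged ileum it was 0.02 ± 0.14 (-0.13 without the 2 arrays high in Car1 and Aqp8) and in the young ileum 0.03 ± 0.13, and the interaction with tissue was 0.56 ± 0.31 (limma adjusted p = 0.820). Cldn4 differed by 0.42 ± 0.27 in the aged colon, -0.06 ± 0.37 in the aged ileum and 0.19 ± 0.34 in the young ileum, with 95% intervals of -0.22 to 1.05, -0.85 to 0.73 and -0.53 to 0.92. Its difference with age was not shown to differ between genotypes (interaction -0.25 ± 0.50, 95% interval -1.33 to 0.82). Without those 2 arrays the aged ileum difference of Cldn4 was -0.25 and the interaction -0.44. The narrowest 95% intervals in the young ileum were those of Cldn12, -0.22 to 0.19, and Cldn7, -0.25 to 0.19.

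Cldn2 in the young ileum was at 2.73, 2.58, 2.60 and 1.11 in iKO, against 2.70, 2.89, 2.70 and 2.54 in flox, a difference of -0.45 ± 0.27 (limma adjusted p = 0.999). The low iKO array is replicate 4, the one with the high sum of B cell markers, and without it the difference was -0.07. Cldn10, which has forms that pass cations or anions, differed by 0.01 ± 0.36 there. Neither interaction passed for any of the 9 claudins, with 0% of all probes passing for genotype by age and 0.0205% for genotype by tissue. No claudin had an unadjusted p under 0.05 by limma in either. That last count has no share of all probes beside it, and nothing is read from it.

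**Figure D5:**
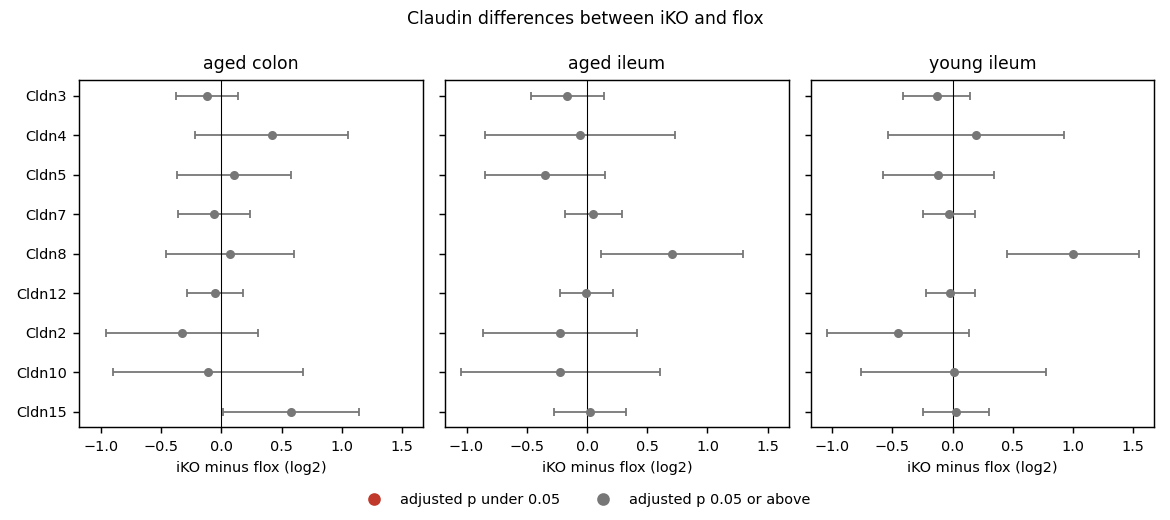
Difference between iKO and flox (x axis, iKO minus flox, log2) for 9 claudins in the aged colon, the aged ileum and the young ileum, with the 95% interval of the fit, not adjusted for the number of probes. No claudin had an adjusted p under 0.05; the intervals of Cldn8 in the ileum at both ages and of Cldn15 in the colon exclude 0.

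Partners of claudins at the tight junction were read from a list of 37 genes, of which 36 were on the array. Between iKO and flox none passed limma in the aged colon (36 tested), the aged ileum or the young ileum (35 tested). Between aged and young ileum 4 of 35 were lower and 0 higher in each genotype, where 5.86% of all probes were lower in iKO and 5.02% in flox. Pals1, a scaffold protein of epithelial polarity, was lower by 0.78 ± 0.14 in iKO (-0.78, limma adjusted p = 0.00614) and by 0.68 ± 0.16 in flox (-0.68, adjusted p = 0.0202). Crb3, its membrane partner, differed by -0.36 ± 0.09 in iKO (adjusted p = 0.0263) and -0.39 ± 0.10 in flox (adjusted p = 0.0334). The other two were Tjp1 (ZO-1) and Mylk in iKO and Magi2 and Arhgef2 in flox. Without the 2 arrays high in Car1 and Aqp8, 2 of 35 passed in each genotype, Pals1 and Crb3 in iKO and Magi2 and Arhgef2 in flox.

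Between colon and ileum 6 of 36 partners were higher and 10 lower in iKO, and 4 were higher and 5 lower in flox (all probes: 25.1% higher and 17.7% lower in iKO, 20.2% higher and 12% lower in flox). Without the 2 ileum arrays high in Car1 and Aqp8, 6 were higher and 8 lower in iKO, and 5 higher and 7 lower in flox. Ildr1, a protein of the contacts where 3 cells meet, was higher in colon by 1.87 ± 0.53 in iKO (limma adjusted p = 0.0139) and 2.94 ± 0.61 in flox (adjusted p = 0.00374). Lsr, a receptor that recruits proteins to the same contacts, was lower, at -1.12 ± 0.12 in iKO (adjusted p = 2.92e-05) and -1.13 ± 0.14 in flox (adjusted p = 0.000156). Cgnl1, a scaffold protein related to cingulin, was higher by 2.03 ± 0.14 in iKO and 1.92 ± 0.17 in flox. Of 11 further claudins on the array, 6 were tested between tissues and 1 passed, Cldn14, higher in colon by 1.43 ± 0.30 in iKO (adjusted p = 0.00229) and 1.39 ± 0.34 in flox (adjusted p = 0.00907). None passed between genotypes in the colon (6 tested) or the ileum (3 tested), and none of those 3 passed between ages.

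Adherens junction and desmosome genes gave 19 tested members in the colon, where 1 passed between iKO and flox: Nectin4, higher in iKO by 1.96 ± 0.19 (limma adjusted p = 0.0210). That comparison had 0.103% of all probes passing. In the ileum 18 of the 19 were tested, and none of these passed between genotypes at either age. The gene left out there is not named here, so nothing is read from that count about Nectin4 in the ileum. The Nectin4 difference was not shown to be particular to the colon. Nectin4 was higher in colon than in ileum by 1.98 in iKO and 2.38 in flox, and 0 of 19 passed limma for genotype by tissue. Among 27 factors known to act on claudin transcription, 26 were on the array and 1 passed between genotypes, Foxa2. It was lower in aged ileum iKO by 0.87 ± 0.15 (-0.87, limma adjusted p = 0.0350, 23 tested), where 0.148% of all probes passed. Without the arrays high in Car1 and Aqp8 it was at -1.01 (limma adjusted p = 0.0274). Between tissues 9 of 25 were higher and 4 lower in colon in iKO, and 9 higher and 3 lower in flox (all probes: the same shares as for the partners). The counts without the 2 arrays high in Car1 and Aqp8 were 9 and 4 in iKO, where Cdx2 and Zeb1 were lost and Grhl1 and Snai2 gained, and 8 and 3 in flox, where Gata4 was lost. Tcfcp2l1, another probe of which was the one most like Cldn8, was among the higher ones, by 1.59 ± 0.16 in iKO and 1.67 ± 0.19 in flox.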

How the data were processed

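Values were signal intensities (gProcessedSignal) deposited by the authors, made with Agilent Feature Extraction 9.5 per the submitters' processing notes, with spatial and multiplicative detrending within each array per the file headers. The authors' series matrix equalled them (largest relative difference 0). From these, log2 levels were computed here as the log2 of the deposited intensity minus the log2 of the array's 75th percentile over non-control spots. Spots of a probe were averaged and flagged outlier spots left out. A probe was kept where all arrays of some group in the fit measured it well above background. limma 3.58.1 (R 4.3.3) then tested 22282 probes in a fit of 15 ileum arrays, 29182 in 7 colon arrays and 29251 in 14 aged arrays. P-values were adjusted over all of these (Benjamini and Hochberg), with calls under 0.05. No claudin spot was flagged or saturated. Each list gene was read from its brightest probe. Members, lists and the rule for naming like probes (largest Pearson's r over 22 arrays, 5 for Cldn4, of which 1 is not reported here, and 3 otherwise) were chosen with earlier results of these data known. All 11 claudin probes matched their symbol by accession in a RefSeq gene table of build GRCm38.p6, and 9 of 10 genes matched a promoter. The number of arrays per group limits the precision. The fits were run on simulated data with known shifts, which checked the average size of the estimated difference. No rate of true or false calls is given from that run.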

Additional observations from a re-analysis of the deposited data

Results flagged for a closer look

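Among 36 groups of 4 arrays tested over 9 claudins, 4 held 1 array whose gap to the nearest other array was a larger part of the group's range than Dixon's 95% critical value allows; chance gives about 1 in 20. Cldn10 was at -2.19 on young ileum iKO replicate 2, against -3.50 to -3.43 on the other 3, and at -2.39 on young ileum flox replicate 2, against -3.46 to -3.30. Those 2 arrays also held the highest Car1 levels of the young ileum, 1.26 and 2.63, and the part of that in the Cldn10 values was not tested. Cldn2 was at 1.11 on young ileum iKO replicate 4, against 2.58 to 2.73. Cldn5 was at -0.28 on young ileum flox replicate 3, against -0.88 to -0.82.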

How the results depend on the processing

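Tried in place of the settings used were normexp correction, quantile normalization, a stricter or no filter on dim probes, the brightest probe per gene, eBayes with trend and robust, slide as a fixed or random factor, a replicate block, the groups of a contrast alone and each array left out; 2 were chosen after seeing the data, a block of genotype and number across tissues and leaving aside the ileum arrays high in Car1 and Aqp8. The count of claudins past the threshold stayed at 0 for iKO against flox at each age and tissue and for both interactions, and at 4 between tissues in iKO. It ranged over 3 to 4 between tissues in flox with single arrays left out. Between ages it was 2, and 1 in iKO with quantile normalization or the replicate block, 1 in flox with slide as a fixed factor or without the arrays high in Car1 and Aqp8, and 1 to 2 in each genotype with single arrays left out. Cldn5 was the claudin lost each time, without 13 of 15 single arrays in iKO and without 5 of 15 in flox. The replicate block changed no other call. Across tissues the block of genotype and number took Cldn2 in flox to a limma adjusted p of 0.0536. Residuals of same-numbered arrays correlated at -0.34 to 0.36 over 21 ileum pairs, 14 of them over 0.1. They correlated at -0.12 to 0.10 over 3 colon pairs and at -0.03 to 0.13 over 7 pairs of aged colon and ileum. Pairs of unlike number are not set beside these, so the values do not settle whether the numbers pair arrays. The fits used took no pairing. No called claudin changed direction. Cldn4 between ages ranged over -4.38 to -3.45 in iKO and -4.12 to -3.24 in flox. Slide as a fixed factor could not be fitted between tissues, and the stricter filter leaves out Cldn4.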
